A study of Mus musculus with 18 samples.

Results

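The genes described here encode proteins of RNA granules and of RNA transport, and what was measured is their messenger RNA, not the proteins. The set was defined by a list of 36 gene names, and every gene whose name in the deposited tables equalled a listed name was taken, with the counts of its transcripts summed. Of the 36 names, 35 were in both tables, out of 12697 named genes there, and Pum2 was in neither. The study profiled RNA that came down with Kif5A, a neuronal heavy chain of the microtubule motor kinesin-1, from mouse nerve. The design compared RNA precipitated from axoplasm (a lysate enriched for the content of axons) by a rabbit antibody to Kif5A with RNA precipitated by rabbit IgG of no relevant target (the isotype control) and with unprecipitated input. The sequencing used SMART-Seq v4 libraries, a method that amplifies full-length complementary DNA.

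There were 6 groups of 3 libraries, 18 in all: IgG precipitate, Kif5A precipitate and input, each from dorsal root (the nerve root between the sensory ganglion and the spinal cord) and from sciatic nerve (the peripheral nerve of the hind limb). All groups came from mice of the strain labelled C57B6, no genetic change or treatment is named for any group, and the labels give neither age nor sex. Dorsal roots and sciatic nerves were taken from the same animals, and 5 animals were pooled for each of the 3 repeats. About 200 ug of lysate met 10 ug of antibody for 3 h. The lysate was made from whole nerve, which also holds Schwann cells and other non-neuronal cells, so an RNA in it is not known to come from an axon.

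RNA granules are assemblies of messenger RNA and RNA-binding proteins that hold transcripts silent while they are stored or moved. In neurons, transport granules travel along microtubules into dendrites and axons, and a class of them was isolated from brain through its binding to the tail of kinesin-1. Fmr1, Fxr1, Fxr2, Stau1, Pura, Purb, Sfpq, Nono, Hnrnpu, Syncrip, Ddx1 and Ddx3x stand here for that class (12 of the 35 genes, the kinesin tail subset). The other members belong to stress granules (G3bp1, G3bp2, Caprin1, Tia1, Tial1, Atxn2), to the nuclear and shuttling hnRNP proteins, to the helicases (Ddx5, Ddx6, Upf1), or to the messenger RNA packaging and splicing factors.

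The counts are given per Ensembl transcript, and for many members they rest on a single transcript model, so a few stretches that tell the counted model apart from the other transcripts of its gene are shown first. Coordinates and sequences are those of the GENCODE annotation of GRCm38, and the sequences are written on the strand of the gene. The capitals GT mark the opening bases of the intron that another transcript of the same gene starts at that point, so a read across them belongs to a transcript that kept the bases.
Upf1-201, chr8:70339982-70340014, minus strand, exon 7 of 24: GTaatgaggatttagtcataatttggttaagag
Fmr1-207, chrX:68691595-68691654, plus strand: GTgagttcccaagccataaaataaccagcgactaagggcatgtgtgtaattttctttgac
Ewsr1-201, chr11:5091400-5091459, minus strand, exon 5 of 5: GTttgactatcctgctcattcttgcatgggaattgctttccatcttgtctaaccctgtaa
Ewsr1-209, chr11:5079425-5079484, minus strand: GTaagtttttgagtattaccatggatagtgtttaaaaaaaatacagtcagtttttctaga
Hnrnpu-203, chr1:178334487-178334546, minus strand: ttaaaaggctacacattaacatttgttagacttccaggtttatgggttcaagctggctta
Fxr1-201, chr3:34064974-34065054, plus strand, exon 15 of 17: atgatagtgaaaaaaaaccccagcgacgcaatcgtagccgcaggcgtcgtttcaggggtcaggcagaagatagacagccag

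The Upf1 stretch adds 33 bases, or 11 codons, to an exon; it is the alternative splice site that lengthens a regulatory loop of the Upf1 helicase. The Fxr1 stretch is an exon of 81 bases, or 27 codons, a size class of Fxr1 exon best known from muscle. Fmr1-207 is a retained-intron transcript and the only Fmr1 transcript in both tables, of 13 annotated. The Fmr1 values below thus cannot be taken as those of the coding messenger RNA. Of its 1333 bases, 900 belong to no other annotated transcript, so reads of other transcripts may enter through the rest. The Ewsr1 and Hnrnpu stretches belong to transcripts that are low in input, and their values in the control precipitates are given further below. The labels do not say how reads shared between transcripts were assigned.

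The libraries held between 11610004 and 22616406 counts. The IgG precipitates stood apart from the other groups: 5.65% to 9.18% of all genes were at 0 in them, against 0.685% to 2.01% in the Kif5A precipitates and 0.362% to 1.06% in the inputs. Pearson's r of log2 levels across genes was 0.714 to 0.763 between IgG libraries of a tissue, 0.856 to 0.952 between Kif5A libraries and 0.849 to 0.987 between inputs. The third sciatic nerve input also stood apart, with r of 0.864 and 0.849 to the other 2 sciatic nerve inputs, which had 0.987 between them. Genes are not independent replicates, so these r values describe the libraries. Members at 0 were found in the IgG libraries alone: Fmr1 and Stau2 in the second dorsal root IgG library, Stau2 in all 3 of sciatic nerve, and there also Hnrnpa1 in the first and the third, Taf15 in the second and Fxr1 in the third.

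Levels below are CPM (the count scaled to the effective library size), and their ratios follow them. Ratios are log2 values with standard errors (SE) from edgeR's quasi-likelihood test with Benjamini-Hochberg adjustment over all genes tested, at an adjusted p threshold of 0.05, and "called" means past it. The repeats are pools of animals, so the p-values rest on the spread between pools, 3 a group. That spread is estimated over all groups in a fit, so groups that are not compared can enter it.

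Kif5A precipitate was first compared with IgG precipitate in each tissue, the comparison that asks which RNAs the Kif5A antibody brought down beyond the control. In dorsal root none of the 35 members was called, and in sciatic nerve none was called either. Over all 12551 genes tested, 0% were called in dorsal root and 0.0478% in sciatic nerve. Before adjustment, 3 members had a p under 0.05 in dorsal root, or 8.57% of the set, where 5.98% of all genes had. In sciatic nerve 2 members had, where 8.45% of all genes had. DESeq2 called 0 members in dorsal root (1.21% of all genes) and 1, Stau2, in sciatic nerve (3.29%). The median log2 ratio over the members was −0.22 in dorsal root, against −0.01 over all genes, with 7 of 35 members above 0. In sciatic nerve it was 0.09, against −0.02 over all genes, with 21 of 35 above 0. Under scaling by library size alone, 10 members in dorsal root and 23 in sciatic nerve were above 0. Single libraries moved the dorsal root count: 12 members were above 0 without the first IgG library, 11 without the second and 11 without the third Kif5A library. Leaving out single libraries or whole repeats gave 9 to 12 in dorsal root, so every such count lay above the 7 of the full fit. The sciatic nerve count ranged from 16 to 22 when single libraries or whole repeats were left out. The median of the members then ranged from −0.02 to 0.17 in sciatic nerve and from −0.35 to −0.15 in dorsal root.

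**Figure D1:**
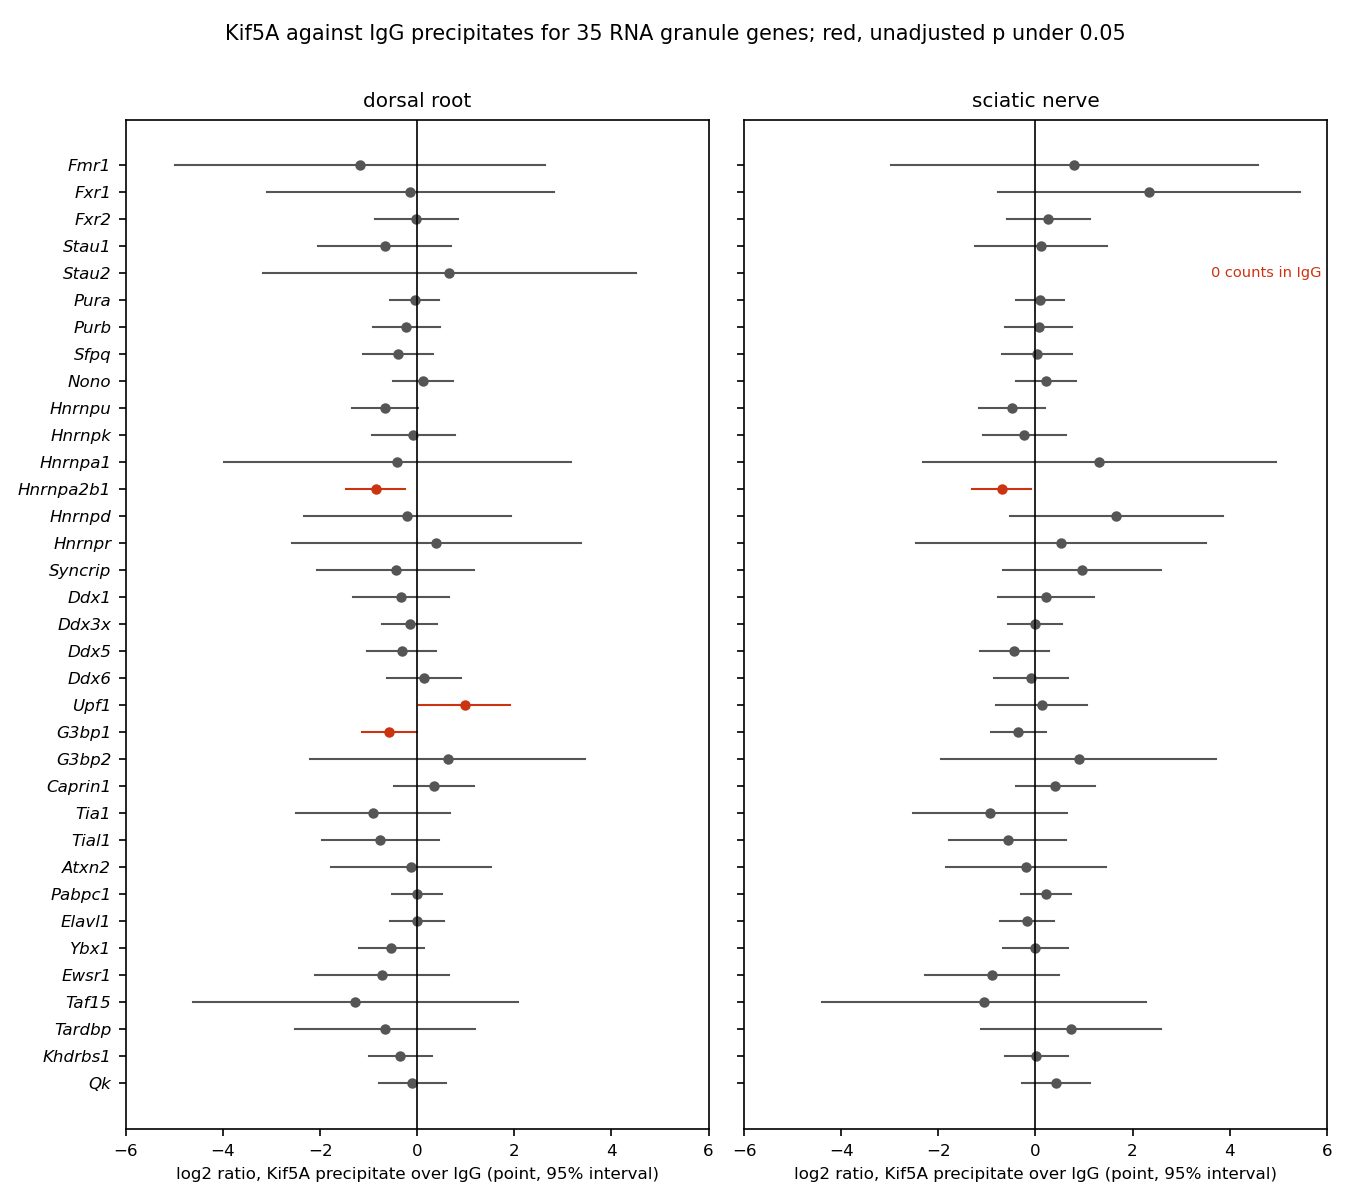
Log2 ratio of Kif5A to IgG precipitate for each of the 35 members (rows, by role), in dorsal root and in sciatic nerve, with 95% intervals; the line at 0 marks equal levels, red an unadjusted p under 0.05, and sciatic nerve Stau2, at 0 counts in IgG, has no point. Most intervals cross 0, from narrow ones such as Pura (−0.56 to 0.45 in dorsal root) to wide ones such as Taf15 (−4.61 to 2.07).

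The width of the intervals set what could be seen. In dorsal root 11 of 35 members had a 95% interval that lay wholly within 1 log2 unit of 0, and in sciatic nerve also 11. For Pura, a single-stranded element binder of transport granules and the only member here besides Purb with a single annotated transcript, the interval was −0.56 to 0.45 in dorsal root and −0.41 to 0.59 in sciatic nerve. For Fmr1 it was −2.98 to 4.59 in sciatic nerve and wider still in dorsal root, so a large difference in either direction was not detectable there.

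The FMRP family comprises Fmr1 and its relatives Fxr1 and Fxr2, translational repressors that bind polyribosomes. Fmr1 was at 2.23, 1.51 and 2.32 CPM in dorsal root input, at 23.4, 0 and 4.82 in IgG and at 5.09, 2.76 and 4.04 in Kif5A precipitate. The IgG libraries spanned the Kif5A libraries, and the log2 ratio of Kif5A to IgG was −1.19 (SE 1.75). In sciatic nerve Fmr1 was at 2.53, 4.92 and 0.626 in input, 0.389, 9.87 and 0.227 in IgG and 10.2, 6.83 and 0.414 in Kif5A, again with full overlap. Fxr1 in sciatic nerve was at 3.99, 0.147 and 0 in IgG and at 5.93, 4.34 and 9.81 in Kif5A, against 4.56, 7.33 and 5.80 in input. The Kif5A libraries all lay above the IgG libraries and within reach of the inputs, so the ratio of 2.33 (SE 1.43, adjusted p = 0.767) went with low control values. In dorsal root Fxr1 was at 2.74, 9.98 and 15.6 in IgG and 8.26, 9.82 and 6.73 in Kif5A, which overlapped. Fxr2, the most abundant of the family, was at 165, 87.1 and 102 in dorsal root IgG and 101, 100.1 and 136 in Kif5A. In sciatic nerve it was at 92.3, 75.0 and 138 in IgG and 94.8, 80.6 and 183 in Kif5A, and its ratios of −0.02 (SE 0.40) and 0.27 (SE 0.40) did not pass the test.

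Stau1, Stau2, Pura and Purb bind double-stranded RNA or single-stranded elements and are the core of many transport granules. Stau2, the brain-enriched Staufen paralog, had the widest contrast of the set in sciatic nerve. Its counts there were 0, 0 and 0 in IgG, 63, 37 and 51 in Kif5A precipitate and 122, 44 and 60 in input. Set against a floor of 3 counts over the IgG group, the Kif5A precipitates were 58.6-fold higher, with 151 counts against 0. That floor allows for counting error alone and not for the spread between libraries, so the fold is no lower limit. The adjusted p was 0.280, and over the alternative settings it ranged from 0.0102, with DESeq2, to 0.568. In dorsal root the Stau2 counts were 1, 0 and 95 in IgG, 5, 106 and 43 in Kif5A and 28, 44 and 15 in input, so there 1 IgG library of 3 reached the range of the others. Stau2 was at most 7.52 CPM in any library, in the first sciatic nerve input.

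Stau1 overlapped between the precipitates in both tissues, at 71.0, 9.21 and 39.3 CPM in dorsal root IgG against 30.8, 26.1 and 15.2 in Kif5A, and at 34.9, 23.9 and 17.3 against 23.3, 30.5 and 26.3 in sciatic nerve. Pura was at 668, 846 and 735 in dorsal root IgG and 806, 714 and 566 in Kif5A, and at 665, 625 and 767 against 691, 681 and 759 in sciatic nerve. Purb was at 947, 1517 and 956 in dorsal root IgG and 1104, 985 and 733 in Kif5A, and at 557, 722 and 1130 against 704, 808 and 945 in sciatic nerve. The precipitates of Pura and Purb overlapped in both tissues. The ratios of Pura and Purb lay between −0.22 and 0.09 over the tissues, with standard errors of 0.23 to 0.32. The 95% interval for Purb was −0.92 to 0.47 in dorsal root and −0.63 to 0.76 in sciatic nerve.

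Sfpq and Nono, partners in nuclear paraspeckles that also ride in axonal granules, overlapped too. Sfpq was at 78.0, 115 and 164 CPM in dorsal root IgG and 79.3, 69.5 and 112 in Kif5A, and at 98.3, 152 and 107 against 102, 128 and 124 in sciatic nerve. Nono was at 168, 195 and 129 against 163, 172 and 179.6 in dorsal root and at 210.1, 132 and 131 against 154, 159.7 and 221 in sciatic nerve. Their ratios in dorsal root were −0.40 (SE 0.33) and 0.12 (SE 0.29).

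Among the hnRNP proteins, which package nuclear RNA and include Hnrnpa2b1, a reader of transport elements in dendritic and myelin messenger RNAs, the most abundant lay lower in Kif5A than in IgG precipitate, without passing the test. Hnrnpa2b1 was at 950.1, 668 and 608 CPM in dorsal root IgG and at 366, 379 and 440.3 in Kif5A precipitate, with input at 589, 675 and 466. All Kif5A libraries lay below all IgG libraries and below all inputs. The log2 ratio to IgG was −0.86 (SE 0.28), the lowest adjusted p of the set in this tissue at 0.587, with a range of 0.121 to 1 over the alternatives. In sciatic nerve Hnrnpa2b1 was at 568, 996 and 642 in IgG and 361, 511 and 448 in Kif5A, with input at 658, 659 and 351. The groups again did not overlap, at −0.70 (SE 0.28, adjusted p = 0.466, range 0.228 to 0.973). Every base of the counted Hnrnpa2b1 transcript is also part of another annotated transcript, so its level depends on how shared reads were assigned.

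Hnrnpu, the large nuclear scaffold protein, was at 549.7, 508 and 386 CPM in dorsal root IgG and at 296, 279 and 303 in Kif5A. These did not overlap, with a ratio of −0.66 (SE 0.32, adjusted p = 0.851). In sciatic nerve Hnrnpu overlapped, at 268, 593 and 411 in IgG and 202, 318 and 360.5 in Kif5A. Syncrip, a cytoplasmic hnRNP of granules, was at 4.74, 8.98 and 6.83 in dorsal root IgG and 5.03, 4.14 and 5.38 in Kif5A, and at 4.91, 2.34 and 7.67 against 9.37, 12.6 and 6.56 in sciatic nerve. It overlapped in both tissues. Hnrnpk, Hnrnpa1, Hnrnpd and Hnrnpr had ratios from −0.41 to 0.40 in dorsal root and from −0.23 to 1.66 in sciatic nerve. All overlapped between the precipitates in both tissues. Hnrnpa1 was at 0, 3.91 and 0 CPM in sciatic nerve IgG, so the first and the third control library held none of its counts.

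Of the helicases, Upf1, which drives nonsense-mediated decay, was the only member that was higher in all dorsal root Kif5A libraries than in all IgG libraries. It was at 31.5, 16.5 and 19.5 CPM in IgG, 38.9, 54.8 and 34.4 in Kif5A and 12.3, 14.8 and 23.6 in input. The ratio to IgG was 0.97 (SE 0.43, adjusted p = 0.814, range 0.395 to 1). In sciatic nerve the same messenger RNA was at 37.3, 47.7 and 26.3 in IgG and 46.7, 42.2 and 28.5 in Kif5A, which overlapped. Ddx1 was at 424, 123 and 139 in dorsal root IgG and 173, 224 and 128 in Kif5A, and at 133, 168 and 260.4 against 191, 202 and 243 in sciatic nerve. Ddx3x, a translation helicase, was at 390.3, 428 and 463 against 407, 364 and 334 in dorsal root and at 270.1, 463 and 452 against 354, 434 and 356 in sciatic nerve. Both overlapped between the precipitates in both tissues. Ddx5 and Ddx6 had ratios of −0.32 and 0.13 there and of −0.43 and −0.10 in sciatic nerve, with standard errors of 0.33 to 0.35.

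Among the stress granule proteins, G3bp1, the nucleator of their assembly, was at 166, 147 and 203 CPM in dorsal root IgG and 94.8, 124 and 116 in Kif5A. The Kif5A libraries lay below the IgG libraries, at −0.57 (SE 0.26, adjusted p = 0.835, range 0.331 to 1). In sciatic nerve G3bp1 overlapped, at 236, 215 and 169 against 122, 176 and 174. Its paralog G3bp2 stayed under 6 CPM in every library and had ratios of 0.63 (SE 1.30) and 0.89 (SE 1.31). Caprin1, the G3bp1 partner, Atxn2, a binder of poly(A)-binding protein, and the TIA proteins Tia1 and Tial1 overlapped between the precipitates in both tissues.

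The poly(A)-binding protein gene Pabpc1 and the AU-rich element binder Elavl1 had ratios between −0.18 and 0.22 over both tissues, with standard errors of 0.24 to 0.26. Ybx1, the messenger RNA packaging protein, was at 1693, 1957 and 1192 CPM in dorsal root IgG and 1232, 1391 and 603 in Kif5A, and at −0.53 (SE 0.31). In sciatic nerve it was at 642, 571 and 623 against 649.9, 518 and 611, which overlapped. Ewsr1 and Taf15, RNA-binding proteins of the nucleus, and Tardbp, which encodes TDP-43, were below 0 in dorsal root, at −0.73, −1.27 and −0.66 with standard errors of 0.64, 1.54 and 0.85. Qk, a splicing factor of glial cells that regulates myelin messenger RNAs, was the most abundant member by CPM, at 5407, 5048 and 4381 in dorsal root IgG and 5808, 4563 and 2953 in Kif5A, and at 1615, 2129 and 2886 against 2706, 2249 and 3648 in sciatic nerve.

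Counting members whose 3 Kif5A libraries all lay on 1 side of the 3 IgG libraries gave 1 higher (Upf1) and 4 lower (G3bp1, Hnrnpu, Hnrnpa2b1 and Taf15) in dorsal root, where 7.83% of all genes were higher and 5.43% lower in this way. In sciatic nerve 2 were higher (Fxr1 and Stau2) and 2 lower (Hnrnpa2b1 and Ewsr1), where 9.35% of all genes were higher and 6.62% lower. Hnrnpa2b1 was the only member on the same side in both tissues. The comparisons of Kif5A with IgG in the 2 tissues use different libraries, but the nerves came from the same animals.

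**Figure D2:**
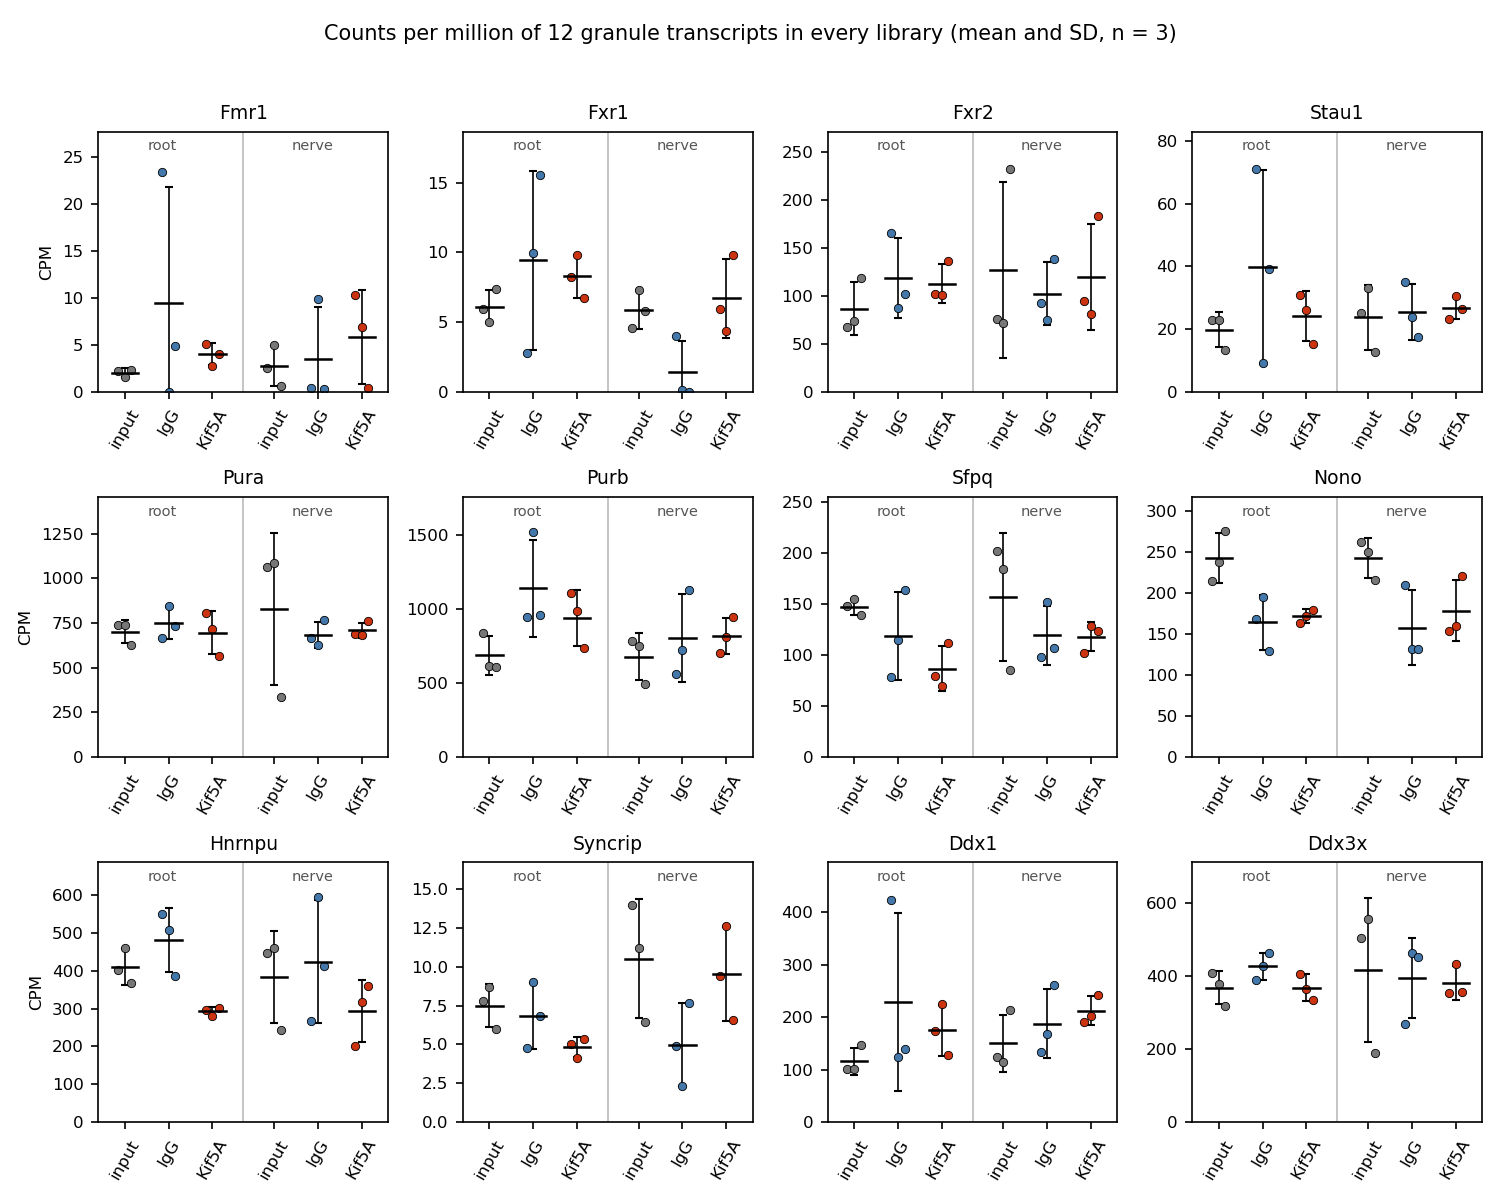
CPM (vertical axes from 0) of the 12 kinesin tail subset genes in each library (points), by tissue (root, nerve) and group, with the mean (bar) and SD (whiskers) of 3 libraries. The Kif5A and IgG libraries overlap for all but Hnrnpu in dorsal root and Fxr1 in sciatic nerve, and Fmr1 spreads from 0 to 23.4 in dorsal root IgG.

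The 12 genes of the kinesin tail subset had a median log2 ratio of Kif5A to IgG of −0.28 in dorsal root (range −1.19 to 0.12), with 1 of 12 above 0, that of Nono. The count above 0 was 5 without the first IgG library, 3 without the second, 2 without any one of the Kif5A libraries and 2 under scaling by library size alone. In sciatic nerve the median was 0.17 (range −0.49 to 2.33), with 10 of 12 above 0. That count was 7 to 11 when single libraries or whole repeats were left out. The difference between the tissues, sciatic nerve minus dorsal root, was above 0 for 12 of 12 genes, with a median of 0.36 and a range of 0.10 to 2.47. Leaving out single libraries or whole repeats gave 9 to 12 of 12, the lowest without the third sciatic nerve Kif5A library and without the first repeat. For all genes the median difference was 0.01, with 50.4% above 0, and for the 35 members it was 0.23 with 27 above 0. No member's difference was called, by edgeR's test (0.0159% of all 12551 genes) or by DESeq2 (1.51%). At an unadjusted p under 0.05 there was 1 member, Stau2 (adjusted p = 0.644), against 6.37% of all genes. Each of the 12 differences had a 95% interval that covered 0, for example 0.15 (SE 0.33) for Pura, 0.15 (SE 0.36) for Ddx3x, 0.10 (SE 0.40) for Nono and 2.47 (SE 1.95) for Fxr1.

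Kif5A precipitate was next compared with input, which asks what the antibody brought down relative to the lysate itself. No member was called in dorsal root, where 0% of the 12681 genes tested were, or in sciatic nerve, where 0.00789% were. These tests take the spread from all 18 libraries, IgG precipitates included. With only the compared groups fitted, 390 genes were called in dorsal root and 0 in sciatic nerve, and again no member. DESeq2 called no member in either tissue (1.45% and 0.381% of all genes). Before adjustment, 2 members passed 0.05 in dorsal root (8.39% of all genes) and 0 in sciatic nerve (6.07%). The median over the members was −0.00 in dorsal root and −0.08 in sciatic nerve, against 0.06 and 0.02 over all genes. Scaling by library size alone shifted the median of all genes by 0.33 in dorsal root and 0.18 in sciatic nerve, so directions here are read relative to all genes. The same scaling moved that median by 0.24 for IgG against input in dorsal root.

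In dorsal root, Upf1 in Kif5A precipitate (38.9, 54.8 and 34.4 CPM) lay above its input (12.3, 14.8 and 23.6), at a log2 ratio of 1.34 (SE 0.44, adjusted p = 0.392, range 0.0509 to 1). In sciatic nerve it was at 14.2, 18.3 and 30.0 in input, and its ratio was 0.91 (SE 0.44, adjusted p = 0.825) with overlap. Upf1 in IgG precipitate had ratios to input of 0.41 (SE 0.43) in dorsal root and 0.83 (SE 0.44) in sciatic nerve, so the point values in the control precipitate also lay above the lysate. Sfpq in dorsal root Kif5A (79.3, 69.5 and 112 CPM) lay below input (149, 155 and 139), at −0.77 (SE 0.34, adjusted p = 0.545). Its partner Nono (163, 172 and 179.6 against 214, 237 and 275) also lay below, at −0.50 (SE 0.26).

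By overlap alone, 6 members were higher in all dorsal root Kif5A libraries than in all inputs: Fmr1, Hnrnpa1, Hnrnpd, Tardbp, Upf1 and Atxn2. Another 8 were lower: Sfpq, Nono, Hnrnpu, Hnrnpk, Hnrnpa2b1, Syncrip, Ddx6 and Khdrbs1, an RNA-binding signalling protein. Over all genes 15.8% were higher and 15.6% lower in this way. The 6 of these 8 with an input level over 100 CPM (Sfpq, Nono, Hnrnpu, Hnrnpa2b1, Ddx6 and Khdrbs1) had ratios from −0.77 to −0.49. In sciatic nerve 3 were higher (Hnrnpa1, Tial1 and Tardbp) and 1 lower (Elavl1), against 8.22% and 9.23% of all genes.

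The IgG precipitate was compared with input as the background that any precipitate carries; it shares the IgG libraries with the comparison of Kif5A with IgG and the inputs with that of Kif5A with input. In dorsal root no member was called (1.23% of the 12681 genes were), 4 had an unadjusted p under 0.05 (19.4% of all genes) and DESeq2 called 1, Ewsr1 (11.3% of all genes). In sciatic nerve 1 member was called, Stau2, where 3.74% of all genes were, and it was lower. DESeq2 also called Stau2 alone of the members there (11.2% of all genes). The median over members was 0.38 in dorsal root, against 0.06 over all genes, with 27 of 35 above 0, and 0.10 against 0.01 in sciatic nerve, with 18 above 0. Of all genes called in dorsal root, 71 were higher and 85 lower, and under scaling by library size alone 203 were higher and 99 lower.

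Stau2 in sciatic nerve fell from 226 counts over the 3 inputs to 0 over the 3 IgG libraries (adjusted p = 0.0366). With IgG set to the same floor of 3 counts, that was 105-fold lower. The adjusted p ranged from 7.19e-05 to 0.203 over the alternatives, and the call was kept in 8 of 16. It was lost with a fit of the compared groups alone, without either of the first 2 IgG libraries and without any of the 3 inputs, where it lay between 0.0565 and 0.0863. Leaving out repeat 1 or repeat 2 as a whole gave 0.178 and 0.203. In dorsal root Stau2 had 1, 0 and 95 counts in IgG and 28, 44 and 15 in input, which overlapped.

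**Figure D3:**
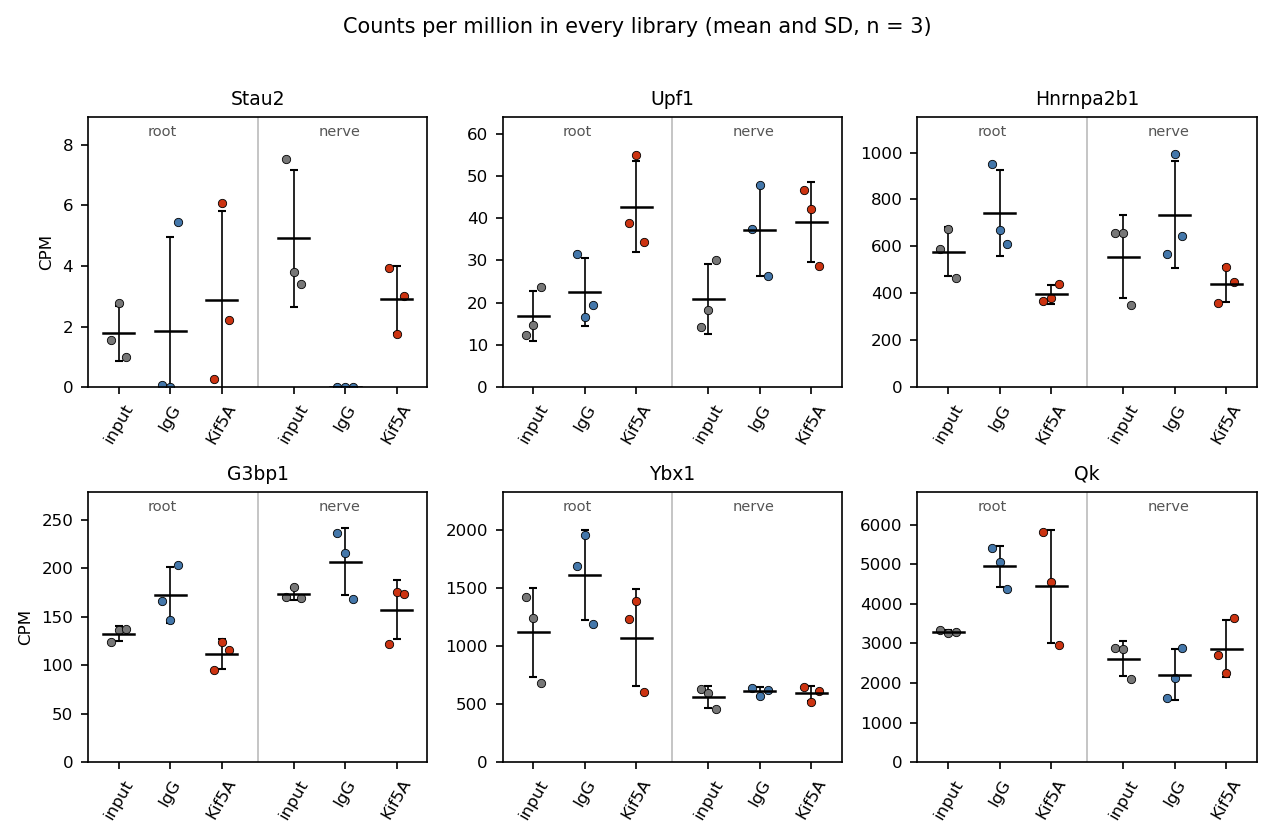
CPM (vertical axes from 0) of Stau2, Upf1, Hnrnpa2b1, G3bp1, Ybx1 and Qk in each library (points), by tissue (root, nerve) and group, with the mean (bar) and SD (whiskers) of 3 libraries. Stau2 is at 0 in all 3 sciatic nerve IgG libraries, and Hnrnpa2b1 in Kif5A precipitate lies below IgG in both tissues.

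Ewsr1 went the other way. It was at 13.3, 12.1 and 9.22 CPM in dorsal root input, 50.0, 40.3 and 18.5 in IgG and 30.8, 21.9 and 10.5 in Kif5A, and at 11.2, 15.9 and 8.30, then 28.8, 30.8 and 33.8, then 28.7, 14.6 and 5.61 in sciatic nerve. All IgG libraries lay above all inputs in both tissues. The log2 ratio was 1.65 in dorsal root (SE 0.58, adjusted p = 0.129) and 1.40 in sciatic nerve (SE 0.58, adjusted p = 0.190). In dorsal root 3 of 16 alternatives called it: DESeq2 (0.0346), leaving out the third IgG library (0.0453) and leaving out the third repeat (0.0376).

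Tial1, a stress granule and splicing protein, was at 82.1, 81.9 and 50.8 CPM in sciatic nerve IgG, above its input at 37.5, 29.2 and 20.5 (1.30, SE 0.51, adjusted p = 0.164). Purb in dorsal root IgG (947, 1517 and 956 CPM) lay above its input (839, 615 and 605), at 0.73 (SE 0.30, adjusted p = 0.192). Nono lay below input in both tissues, at −0.56 (SE 0.26, adjusted p = 0.240) in dorsal root and −0.62 (SE 0.26, adjusted p = 0.196) in sciatic nerve. Its ratios of Kif5A to input were −0.50 and −0.44 (SE 0.26 each), against the same inputs.

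By overlap, the dorsal root IgG libraries were all higher than input for 6 members (G3bp1, Purb, Tardbp, Ewsr1, Taf15 and Qk) and all lower for 3 (Nono, Hnrnpk and Ddx6), against 12.3% and 18.1% of all genes. In sciatic nerve 3 were higher (Tial1, Ewsr1 and Atxn2) and 3 lower (Fxr1, Stau2 and Nono), against 9.89% and 14.2%. Nuclear-retained RNA was higher in IgG precipitate than in input in both tissues. The summed level of Malat1, Neat1, Meg3 and Snhg11 was 28981 to 33653 CPM in dorsal root IgG against 2913 to 17112 in input. In sciatic nerve it was 23339.8 to 48067 against 2297 to 18559.9. In Kif5A precipitates it was 13096 to 28834.5 in dorsal root and 8619.6 to 49201 in sciatic nerve, which overlapped input in both tissues. The part of nuclear-retained RNA in the members' values was not tested. Some other marker lists moved with the precipitates too, in the tissue given for each. The summed level of myelinating Schwann cell markers (6 of 7 measured) was 9419.6 to 17769 CPM in dorsal root IgG and 9251 to 17685 in Kif5A, against 20109 to 27699 in input. Oligodendrocyte and astrocyte markers (4 of 6 measured) were at 1829.7 to 2823 in dorsal root IgG and 2053 to 2384 in Kif5A, against 968 to 1415 in input. Adipocyte markers (3 of 5 measured) were at 11491.5 to 25301 in sciatic nerve IgG and 1774 to 11158 in Kif5A, against 985 to 3781 in input. There the Kif5A range overlapped input, while the IgG range lay above it. Erythroid markers (5 of 5 measured) were lower in the sciatic nerve precipitates, at 269 to 371 in IgG and 603 to 624 in Kif5A, against 1686 to 1869.8 in input. In the tissue not given, the IgG and Kif5A ranges of these Schwann cell, oligodendrocyte and astrocyte, adipocyte and erythroid lists overlapped input. Skeletal muscle markers (4 of 5 measured) in sciatic nerve were at 339 to 415 in IgG and 360 to 552 in Kif5A, against 814 to 970 in input. Macrophage markers there were at 329 to 422 and 346 to 482, against 600 to 680. The part of these markers in the members' values was not tested either.

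Beyond the set, 90 other genes of RNA granules, decay and transport had been listed, and 71 were in the tables. For Kif5A against IgG, 0 of 70 tested were called by edgeR's test in either tissue, and the medians were −0.09 and −0.12. Before adjustment, 3 of them passed 0.05 in dorsal root (5.98% of all genes) and 12 in sciatic nerve (8.45%). For Kif5A against input, 0 of 71 were called, with 9 and 7 passing before adjustment (8.39% and 6.07% of all genes). For IgG against input in sciatic nerve, where 3.74% of all genes were called, 4 of 71 rose: Upf2 at 2.02 (SE 0.43, adjusted p = 0.0230), Tnrc6a at 1.29 (SE 0.29, adjusted p = 0.0268), Smg6 at 1.74 (SE 0.43, adjusted p = 0.0393) and Upf3b at 1.84 (SE 0.50, adjusted p = 0.0489). Upf2, Upf3b and the endonuclease Smg6 act with Upf1 in nonsense-mediated decay, and Tnrc6a is a microRNA silencing scaffold. None of the 4 calls was kept when any one of the inputs was left out or when only the compared groups were fitted, and DESeq2 called 11 genes of the list (11.2% of all genes).

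The inputs were compared between the tissues, as the background on which the precipitates stand. No member was called by edgeR's test, where 4.12% of the 12215 genes tested were, or by DESeq2, where 8.73% were, and 2 members had an unadjusted p under 0.05 (14.6% of all genes). The median over members was −0.01, against 0.06 over all genes, and 19 of 35 members had a 95% interval within 1 log2 unit of 0. Ybx1 was at 1429, 1245 and 686 CPM in dorsal root input and at 635, 599 and 457 in sciatic nerve, with all dorsal root inputs higher. The ratio, sciatic nerve to dorsal root, was −0.98 (SE 0.30, adjusted p = 0.140, range 8.97e-06 to 0.884). It was called without the third dorsal root input (0.0462) and without the third sciatic nerve input (0.0361), as well as without repeat 3 as a whole.

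Stau2 was at 1.56, 2.76 and 0.995 CPM in dorsal root input and 7.52, 3.79 and 3.41 in sciatic nerve, with a ratio of 1.48 (SE 0.57, adjusted p = 0.262), and it was called without the third sciatic nerve input (0.0458). Without that library, which stood apart, 5 members were called, where 20.6% of all genes were: Stau2 (1.68), Hnrnpk (0.80), Pura (0.62) and Ddx3x (0.53) were higher in sciatic nerve and Ybx1 (−0.86) lower. G3bp1 and Stau2 were higher and Ybx1 and Qk lower in all sciatic nerve inputs than in all dorsal root inputs, against 9.97% and 11.1% of all genes. Among the other listed genes Elavl3, the neuronal relative of Elavl1, fell by 5.94 on the log2 scale (SE 0.72, adjusted p = 0.00195).

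The input levels of the kinesin tail subset show how far that library departed. Pura was at 741, 738 and 629 CPM in dorsal root input and 1064, 1087 and 337 in sciatic nerve. Ddx3x was at 408, 379 and 319.6, then 504, 557 and 191. Hnrnpu was at 403, 460.4 and 368, then 446, 461 and 243. All 3 were lowest in the third sciatic nerve input. Sfpq in sciatic nerve input was at 202, 185 and 85.1 and Nono at 262, 249.6 and 215. Purb was at 785, 748 and 494 there. Stau1 was at 23.0, 22.9 and 13.3 in dorsal root input and 25.1, 33.1 and 12.7 in sciatic nerve. Among the sciatic nerve inputs, these 4 were also lowest in the third. Syncrip was at 7.82, 8.66 and 5.97, then 13.9, 11.2 and 6.43. Fxr2 was at 67.3, 73.4 and 118, then 76.0, 71.6 and 232. Ddx1 was at 101, 101 and 146, then 123, 115 and 213. Fxr2 and Ddx1 were thus highest in that library, where Syncrip was lowest of its tissue. Fxr1 was at 5.92, 5.02 and 7.36 in dorsal root input, which overlapped its sciatic nerve inputs.

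Outside the subset, G3bp1 was at 123, 137 and 137 CPM in dorsal root input and 170.0, 180.2 and 169 in sciatic nerve. Qk was at 3329, 3260 and 3293, then 2879, 2858 and 2099. Tial1 in dorsal root was at 39.3, 41.1 and 27.8 in input, 107, 68.8 and 14.6 in IgG and 40.1, 41.3 and 27.1 in Kif5A, and in sciatic nerve Kif5A at 41.8, 54.2 and 44.0. The dorsal root IgG libraries of Tial1 spanned both other groups, while its sciatic nerve Kif5A libraries all lay above the inputs.

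Markers of cell types differed between the tissues beside these values. The summed level of sensory neuron markers (6 of 11 measured, among those absent from the tables Prph, Scn10a and Trpv1) was 834 to 871 CPM in dorsal root input and 93.1 to 120.3 in sciatic nerve. Oligodendrocyte and astrocyte markers (4 of 6 measured) were at 968 to 1415 against 13.7 to 16.3, and adipocyte markers at 37.3 to 47.0 against 985 to 3781. None of the measured markers was at 0 in a whole group, and their part in the members' levels was not tested. In tissue lysates such as these, fewer cells of a type and less RNA per cell cannot be told apart.

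Per kilobase of counted transcript, the members' input levels covered a wide range. The lengths of all counted transcripts of a gene were added up, shared bases included, which lowers the level of genes with several. The length was 12569 bases for Qk, from 2 transcripts, and 1728 for Hnrnpa2b1, from 1. The order was led by Hnrnpa2b1 (328 CPM per kilobase), Ybx1 (248), Qk (235) and Pura (129), followed by Ddx3x (83.8), Purb (81.8), Nono (61.7) and Ddx6 (60.8). It ended with Taf15 (0.583), Hnrnpr (0.524), G3bp2 (0.311) and Hnrnpd (0.286). Of the 34 pairs of neighbours in this order, 33 overlapped between libraries. The exception was the step from Khdrbs1, the 17th at 15.9, to Caprin1, the 18th at 5.70. Such levels depend on which transcripts were counted: 1 of 30 annotated transcripts for Tardbp, 5 of 34 for Hnrnpk and 1 of 13 for Hnrnpa2b1.

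Replicate spread followed the level. The 17 members with at least 100 CPM in input had a median coefficient of variation of 21.0% in dorsal root IgG, 17.4% in Kif5A and 12.6% in input, and of 27.5%, 17.2% and 31.5% in sciatic nerve. The 18 members below that level had 65.4%, 27.5% and 21.1% in dorsal root and 53.5%, 40.0% and 40.6% in sciatic nerve. For all 1978 genes of at least 100 CPM the values were 30.9%, 22.6% and 14.4%, then 28.0%, 25.0% and 26.2%. The low members, Fmr1, Fxr1, Stau2, Hnrnpa1, Hnrnpd and Taf15 among them, thus carry most of the wide ratios given above.

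Because the tables count transcripts, the transcripts of the members were also tested one by one over all transcripts, a test chosen after seeing the data. Of their 72 transcripts, 70 passed the low-count filter for Kif5A against IgG, 71 for the comparisons with input and 65 between inputs. Of the 72, 45 are protein coding, 17 retained introns, 6 processed transcripts and 4 targets of nonsense-mediated decay. For Kif5A against IgG no member transcript was called in either tissue (0% of all transcripts in dorsal root, 0.0481% in sciatic nerve), nor for the difference between tissues (0%). Before adjustment 3 passed 0.05 in dorsal root (6.4% of all transcripts), 5 in sciatic nerve (9.21%) and 3 for the difference (7.34%). DESeq2 called 0, 4 and 1 (1.63%, 4.43% and 2.19% of all transcripts). For IgG against input in sciatic nerve 3 were called, where 3.9% of all transcripts were, and all 3 were lower; DESeq2 called 7 there (12.8%). None was called for IgG against input in dorsal root (1.17% of all transcripts), for Kif5A against input (0% and 0.00593%) or between inputs (2.99%). There 18 (19.2%), 6 and 1 (7.51% and 5.7%) and 2 (12.5%) passed before adjustment. DESeq2 called 10 for IgG against input in dorsal root (12.4%), 0 and 0 for Kif5A against input (1.17% and 0.473%) and 0 between inputs (7.58%).

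The 3 called for IgG against input in sciatic nerve were Stau2-203 (adjusted p = 0.0356), Ewsr1-201 and Hnrnpu-203. Stau2-203 is the only Stau2 transcript counted, so its call repeats that of the gene. Of 15 alternatives, 9 kept the call of Ewsr1-201, 7 that of Stau2-203 and 5 that of Hnrnpu-203. Ewsr1-201, the short coding transcript with the last exon shown above, had 0 counts in all 6 IgG libraries. Its input counts were 19, 12 and 35 in dorsal root and 46, 56 and 11 in sciatic nerve, and its Kif5A counts 40, 2 and 5, then 34, 29 and 12. With IgG set to the floor of 3 counts, its level in sciatic nerve was 52.3-fold lower than input (adjusted p = 0.0249). In dorsal root it was 20.4-fold lower (adjusted p = 0.0564). Against the same floor, Kif5A precipitate was 12.9-fold higher than IgG in dorsal root (adjusted p = 0.434) and 29.1-fold higher in sciatic nerve (adjusted p = 0.179).

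Ewsr1-209, a processed transcript that runs on past the splice site shown above, made up 36.4 of the 50.0 CPM of Ewsr1 in the first dorsal root IgG library. It was at 1.28, 1.51 and 0.729 CPM in dorsal root input and 36.4, 18.7 and 4.48 in IgG, a log2 ratio of 4.04 (adjusted p = 0.0881). In sciatic nerve it was at 1.91, 0.690 and 0.227 in input and 14.6, 1.47 and 18.5 in IgG, a ratio of 3.57 (adjusted p = 0.103), with overlap through the second IgG library. In Kif5A precipitate it was at 10.9, 8.56 and 1.40, then 13.6, 5.75 and 0.827. Ewsr1-210, another processed transcript, also lay above its dorsal root inputs in all IgG libraries, at 6.01, 13.7 and 2.24 CPM against 2.07, 1.63 and 0.464. The Ewsr1 gene total in dorsal root IgG thus joined transcripts below and above their input level.

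Hnrnpu-203 was at 0 in all 3 sciatic nerve IgG libraries, against 62 counts in input, 28.7-fold lower by the floor (adjusted p = 0.0452). In sciatic nerve Kif5A it was at 1.69, 0.943 and 0.354 CPM. In dorsal root it was at 33.7, 13.4 and 3.62 CPM in IgG and 1.01, 0.753 and 1.66 in input, so the IgG libraries lay below input in sciatic nerve and above it in dorsal root. The main coding transcript Hnrnpu-201 carried nearly all of the gene's level, at 398, 458 and 365 in dorsal root input, and the low transcript did not set the gene's ratio.

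**Figure D4:**
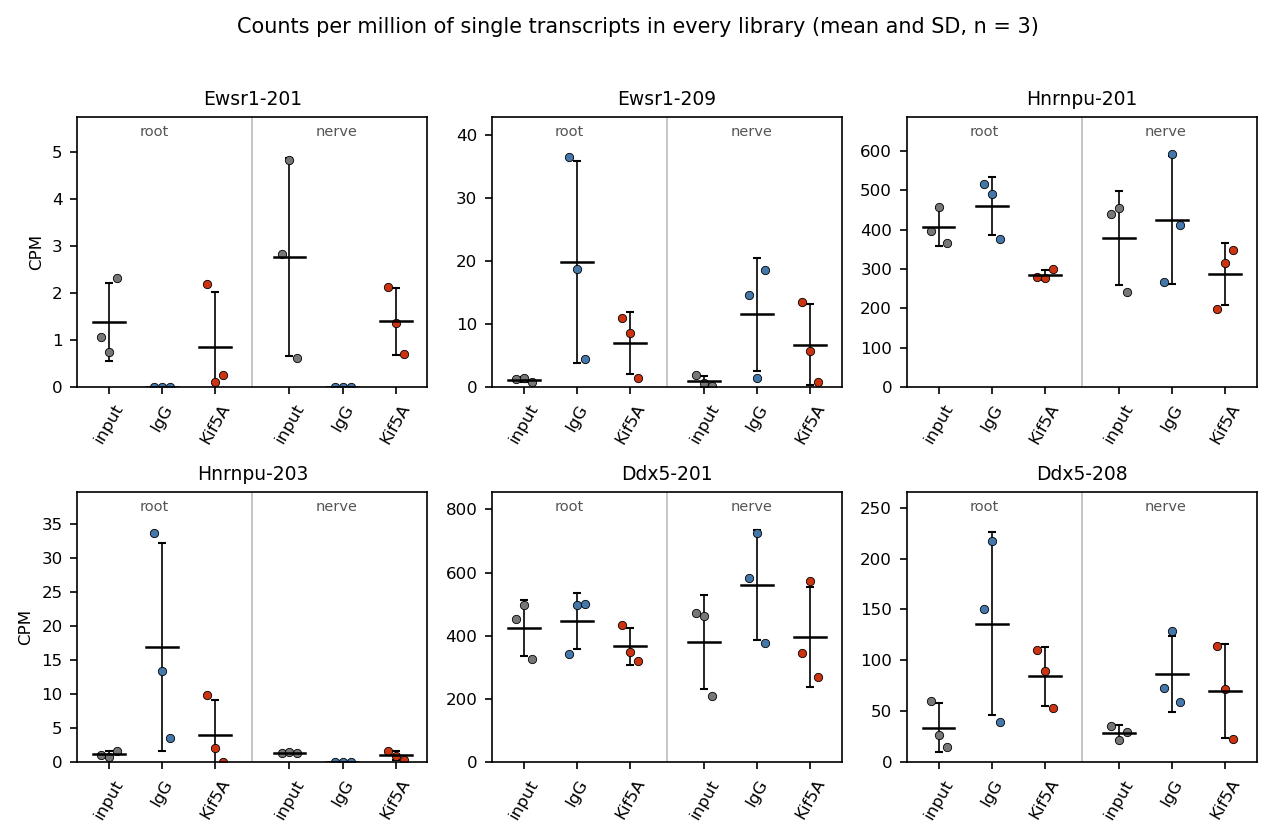
CPM (vertical axes from 0) of 6 member transcripts in each library (points), by tissue (root, nerve) and group, with the mean (bar) and SD (whiskers) of 3 libraries. Ewsr1-201 is at 0 in all 6 IgG libraries, while Ewsr1-209 lies above its inputs in all 3 of dorsal root.

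Ddx5-208, a nonsense-mediated decay target of the helicase gene Ddx5, was the member transcript that the authors' deposited table lists for Kif5A against input. It was at 60.5, 26.4 and 14.7 CPM in dorsal root input, 151, 218 and 39.6 in IgG and 110.3, 89.7 and 52.8 in Kif5A. The ratio of IgG to input was 1.99 in dorsal root (adjusted p = 0.105) and 1.55 in sciatic nerve (adjusted p = 0.181). The coding Ddx5-201 overlapped between input (452, 498 and 327) and IgG (343, 497 and 500.3). Non-coding classes made up 4.24% to 8.31% of the members' CPM in dorsal root IgG and 4.71% to 6.02% in input, so the members' totals stayed mostly coding in both. Over all named transcripts these classes made up less, at 1.79% to 3.51% and 1.39% to 1.8%.

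The authors' deposited table gives its own comparison per transcript and tissue, with the members' transcripts at 80 in dorsal root and 75 in sciatic nerve. At a false discovery rate under 0.05 the authors' deposited table lists 6.59% of all its transcripts for Kif5A against IgG in dorsal root and 6.69% in sciatic nerve, and for Kif5A against input 2.9% and 1.19%. For Kif5A against IgG the authors' deposited table lists 2 of the members' transcripts in dorsal root, Ewsr1-201 (log2 6.43, FDR 0.0143) and Hnrnpa2b1-203 (−0.85, FDR 0.0389). In sciatic nerve the authors' deposited table lists 4: Stau2-203 (8.72, FDR 0.000806), Ewsr1-201 (7.75, FDR 0.00156), Hnrnpu-203 (7.07, FDR 0.00193) and Hnrnpu-207 (6.68, FDR 0.0148). For Kif5A against input the authors' deposited table lists Ddx5-208 (1.43, FDR 0.0264) in dorsal root and none in sciatic nerve, where the lowest FDR was 0.166. Of these 5 positive ratios to IgG, 4 are of transcripts with 0 counts in every IgG library of that tissue, and Hnrnpu-207 had 0, 0 and 2.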

How the data were processed

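RNA of 18 libraries was sequenced, 3 in each of 6 groups. The authors deposited raw counts per Ensembl transcript for each library in a table per tissue, and beside them, per the file headers, a log2 fold change, a p-value and a false discovery rate for each of their comparisons. The submitters' processing notes name CASAVA 1.8.2, edgeR and the builds mm10 and GRCm38; the aligner, the counter and the strand setting are named by none of the sources used. Transcripts named in both tables (16878) were summed to 12697 genes. Rows without a gene name, 0.138% to 0.237% of each library, were left out.

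Tests used edgeR 4.0.16 in R 4.3.3 (robust quasi-likelihood test, TMM scaling, filterByExpr, Benjamini-Hochberg adjustment). The 12 precipitates entered 1 fit for Kif5A against IgG, all 18 libraries the fits against input and the 6 inputs a fit of their own. Alternatives used DESeq2 1.42.0, other scalings, no filter, a replicate block, other samples in the fit, all transcripts of each table and leaving out each library or repeat. A group at 0 was set to a floor of 3 counts over the group, which leaves out the spread between libraries. The test script was tested on simulated counts. Full values are given for members past the threshold or with an unadjusted p under 0.05 and no overlap between groups, for the leading member of each role, and for the kinesin tail subset. The members, the gene lists and the markers were chosen with earlier results of these data known. Libraries with the same replicate number were taken to deviate together where every pair had r over 0.1. By lowest r, this held for Kif5A and IgG in dorsal root (0.104) and Kif5A and input in dorsal root (0.112) and sciatic nerve (0.164). It also held for the inputs of the tissues (0.253), which share animals.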

Additional observations from a re-analysis of the deposited data

How the results depend on the processing

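No named ratio changed sign under any alternative. For all genes, DESeq2 called 151 (dorsal root) and 411 (sciatic nerve) for Kif5A against IgG, 188 for the difference between tissues, 168 and 48 for Kif5A against input, 1417 and 1414 for IgG against input and 1064 between inputs; of members it called 1 for Kif5A against IgG in sciatic nerve (Stau2), 1 for IgG against input in dorsal root (Ewsr1) and 1 in sciatic nerve (Stau2). With only the groups compared in the fit, the counts over all genes were 0 for Kif5A against IgG in sciatic nerve, 390 and 0 for Kif5A against input, and 0 and 5 for IgG against input, where Stau2 was lost (0 members). Scaling by library size alone gave 302 for IgG against input in dorsal root and 4 for the difference between tissues, which was 4 with relative log expression factors and 0 with all transcripts of each table. With all 18 libraries in the fit, 180 genes were called between inputs.

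The replicate block gave 1 gene for Kif5A against IgG in sciatic nerve, 0 for the difference and 621 for IgG against input in dorsal root. The lowest r of a pair with the same number was 0.0729 for Kif5A and IgG in sciatic nerve. For IgG and input in dorsal root it was 0.0421. In comparisons where every such pair had r over 0.1, the block changed no call of a member and no count by over 1.5 times. Every Kif5A library correlated best with the IgG library of its own number within each tissue, a hint from the data and not from the design. The first sciatic nerve Kif5A library correlated best with the second input, and the second sciatic nerve input with the first of dorsal root.

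Leaving out single libraries or repeats gave 0 to 2 and 0 to 29 genes for Kif5A against IgG, 0 to 24 for the difference, 0 to 454 and 0 to 116 for Kif5A against input, 0 to 1622 and 0 to 1224 for IgG against input, and 132 to 3517 between inputs. For members the ranges were 0 to 3 and 0 to 3 for IgG against input in dorsal root and sciatic nerve and 0 to 5 between inputs, and 0 in the other comparisons. The causes of these shifts were not tested. The 95% interval lay wholly within 1 log2 unit of 0 for 11 of 35 members in each tissue for Kif5A against IgG and for 19 between inputs; for the others it reached past 2-fold.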
